A study of Mus musculus with 12 samples.

Results

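Etnppl encodes ethanolamine-phosphate phospho-lyase, the enzyme that breaks phosphoethanolamine down, and it was examined here with the other 4 genes whose enzymes make or use the same metabolite: Etnk1, Etnk2, Pcyt2 and Phospho1. The 5 genes were found by their symbols among the 24421 entries of a deposited RNA sequencing table. Etnppl was chosen by its measured values, as the steepest riser between postnatal day 7 and postnatal day 14, and it was also the steepest of the 15464 genes tested here. The other 4 were added for their place in the pathway, so the Etnppl values from P7 to P14 describe how it was chosen and carry no test.

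The table came from the cerebellum of Aldh1l1-GFP reporter mice, in which the promoter of Aldh1l1, a folate enzyme gene used as an astrocyte marker, drives green fluorescent protein. Ages are given in postnatal days, with P1 as the youngest, P7 and P14 between, and P28 as the oldest, and each age had 3 libraries, 12 in all. Every group carried the same reporter, and the labels give no treatment. According to the methods, GFP-positive cells were sorted from C57/BL6J mice of both sexes, and GFP marks all cells in which this promoter is active rather than one astrocyte type. The labels do not say whether the 3 libraries of an age came from separate animals, so p-values measure the spread between these libraries, which may be technical. Between 6399499 and 14733985 reads per library fell on genes. Values are normalized counts, which are reads divided by 1 size factor per library, and 1 read was worth 0.615 to 1.46 normalized counts.

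In the CDP-ethanolamine pathway, ethanolamine kinases phosphorylate ethanolamine, the cytidylyl-transferase encoded by Pcyt2 activates the phosphoethanolamine, and a phosphotransferase joins it to diacylglycerol to give the membrane lipid phosphatidylethanolamine. Phosphoethanolamine that is not used in this way can be cleaved by Etnppl to acetaldehyde, ammonia and phosphate, or dephosphorylated by Phospho1, a phosphatase best known from mineralizing cartilage and bone. Etnppl is known in brain mainly from astrocytes, and myelin is rich in ethanolamine lipids.

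On the mouse genome GRCm38, Etnppl lies on the plus strand at chr3:130617448-130637521, Etnk1 on the plus strand at chr6:143167221-143232307, and Etnk2 on the plus strand at chr1:133363572-133380336. Pcyt2 lies on the minus strand at chr11:120610087-120617936 and Phospho1 on the plus strand at chr11:95824499-95832140. The 250 bases before the RefSeq start are printed for Etnppl, which was near 0 at P1 and P7, and for Etnk1, which was read in every library, because these neighbours in the pathway differed in both level and promoter make-up. Capitals mark CG pairs, and both windows are read 5′ to 3′ on the plus strand at chr3:130617198-130617447 and chr6:143166980-143167229.
Etnppl: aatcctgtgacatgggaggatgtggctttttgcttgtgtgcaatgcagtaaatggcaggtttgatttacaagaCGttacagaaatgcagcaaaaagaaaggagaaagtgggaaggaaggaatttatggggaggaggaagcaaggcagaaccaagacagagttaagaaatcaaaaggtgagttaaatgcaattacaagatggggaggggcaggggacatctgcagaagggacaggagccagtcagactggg
Etnk1: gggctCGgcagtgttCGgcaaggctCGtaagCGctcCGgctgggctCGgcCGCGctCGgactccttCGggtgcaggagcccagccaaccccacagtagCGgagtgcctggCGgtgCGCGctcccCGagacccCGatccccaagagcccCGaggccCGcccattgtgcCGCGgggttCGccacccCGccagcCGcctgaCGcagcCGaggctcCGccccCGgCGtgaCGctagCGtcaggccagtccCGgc

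The Etnppl window held 1 CG pair and was 46% G or C, and the window of a second RefSeq start of the gene, at chr3:130617325-130617574, also held 1. Across 32841 promoter windows of this length in RefSeq (GRCm38.p6), the median was 6 CG pairs, and 18.8% held 1 or none. The Etnk1 window held 31 CG pairs and was 74.8% G or C, and 94.8% of all windows held fewer. Etnk2 had 15 CG pairs and Phospho1 34 in the same span. The letters TATAAA were on neither strand of the windows of these 4 genes, against 12.4% of all windows with a match. These are descriptions of sequence, and no factor was measured.

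Etnppl, the lyase, was close to absent from the first 2 ages and abundant at the later 2. The P1 libraries held 0.615, 2.14 and 15.1 normalized counts, and those of P7 held 13.5, 1.31 and 0. The P14 values were 993, 480 and 1077, and the P28 values were 915, 767 and 656. Every P14 and P28 library was above every P1 and P7 library, and within the early ages 1 library at each age carried most of the reads, 20 of 24 at P1 and 17 of 18 at P7. A library with 0 reads can hold up to 3 reads at 95% confidence, which is 2.33 normalized counts in that P7 library, for counting error only. The mean was 5.97 ± 7.98 for P1, 4.95 ± 7.47 for P7, 850 ± 323 for P14 and 779 ± 130 for P28 (SD, n = 3 each).

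The step from P7 to P14, which chose the gene, was 7.96 on the log2(normalized count + 1) scale, or 172-fold between the means, and it ranged from 7.11 (without P7 replicate 3) to 9.04 (without P7 replicate 1) with single libraries left out. Just outside that choice stood Dao, which encodes D-amino acid oxidase, with a log2 difference of 6.79. The steps on either side were small beside this one, with a log2 difference of -0.43 from P1 to P7 and -0.05 from P14 to P28, and in both the libraries of the 2 ages overlapped. P1 and P28 share no library with the step that chose Etnppl, so this pair was tested, but the test is not fully independent of that choice. Its spread was estimated over all 12 libraries, those of P7 and P14 among them. Etnppl also passed the filter, at least 10 normalized counts in at least 3 libraries, only through its P14 and P28 libraries. With only the P1 and P28 libraries in the fit the adjusted p was 7.51e-04 (limma). Etnppl was higher at P28 than at P1 by 7.48 (SE 0.95, 95% interval 5.44 to 9.51; limma, adjusted p = 3.97e-05), with no overlap between the libraries. That was the fifth largest increase of 15464 genes tested, between Ttr (7.59) and Lgi4 (7.46).

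**Figure D1:**
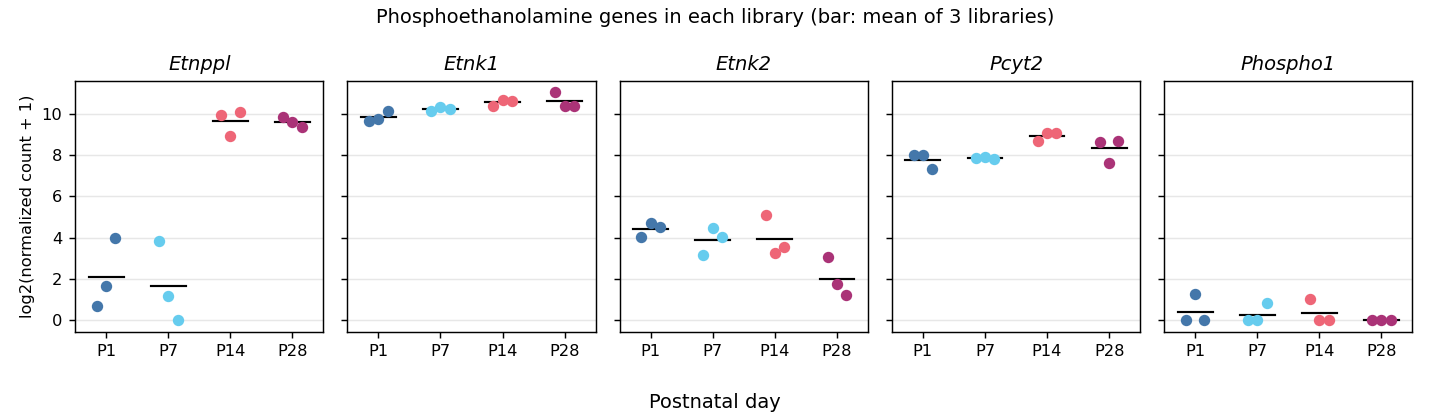
Each point is 1 library, with the postnatal day on the x axis and log2(normalized count + 1) on the y axis, and the bar is the mean of the 3 libraries. Etnppl moved from a range of 0 to 15.1 normalized counts at P1 and P7 to 480 to 1077 at P14 and P28, while Etnk1 and Pcyt2 were well above 100 in all 12 libraries and Phospho1 was near 0 throughout.

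Etnk1, the ethanolamine kinase found in most tissues, was the most read of the 5 genes at every age and rose slowly. P1 gave 794, 852 and 1119 normalized counts, P7 gave 1106, 1289 and 1200, P14 gave 1322, 1641 and 1590, and P28 gave 2097, 1345 and 1337. The highest P1 library overlapped P7, P7 stayed below P14, and 1 high library at P28 stood apart from 2 that lay within the P14 range. None of the 3 steps passed the test: the log2 differences were 0.39 (adjusted p = 0.337), 0.34 (adjusted p = 0.290) and 0.04 (adjusted p = 0.916, limma). Over the whole span from P1 to P28 Etnk1 rose by 0.77 (SE 0.21; limma, adjusted p = 0.00982), from 922 ± 174 to 1593 ± 437 (SD, n = 3 each), with no overlap. The call was lost when libraries were scaled by their totals alone, with a log2 difference of 0.34 (adjusted p = 0.231). That scaling moved the median of all genes in this comparison from -0.24 to -0.67, and relative to the median Etnk1 was higher by 1.01 and 1.00 under the 2 scalings. A change of scaling shifts all genes nearly alike, so this agreement was set in advance and does not restore the call.

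Etnk2, the second ethanolamine kinase, best known from liver and placenta, was scarce and fell by P28. P1 gave 15.4, 25 and 22 normalized counts, P7 gave 7.96, 20.9 and 15.5, P14 gave 32.8, 8.46 and 10.9, and P28 gave 7.31, 2.36 and 1.35, the last from 8 reads in all. P28 lay below the other 3 ages with no overlap, and P14 held 1 library above and 2 within the range of P1 and P7. Etnk2 fell by 2.41 on the log2 scale from P1 to P28 (SE 0.80; limma, adjusted p = 0.0320). This call was lost without any one P1 library and without P28 replicate 2 or 3, with log2 differences of -2.60 to -2.02 and adjusted p up to 0.0875, and also in edgeR (-2.44, adjusted p = 0.0743). The single steps did not pass: -0.53 (adjusted p = 0.838) to P7, 0.08 (adjusted p = 0.964) to P14 and -1.95 (adjusted p = 0.119) to P28.

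The balance of the 2 kinases was compared as the log2 ratio of Etnk2 to Etnk1 in each library. It averaged -5.88 ± 0.65 over the 6 libraries of P1 and P7 and -7.60 ± 1.36 over the 6 of P14 and P28 (SD). The late ratios ranged from -9.15 to -5.29 and the early ones from -6.95 to -5.04, so P14 replicate 1 lay within the early range. The difference of -1.72 had a two-sided exact permutation p of 0.0260 (6 libraries against 6) and 0.0519 after adjustment over the 2 ratios tested, which missed the threshold. This test pools the 2 ages on each side. By age the mean ratio was -5.41 ± 0.33 in P1, -6.34 ± 0.55 in P7, -6.60 ± 1.15 in P14 and -8.59 ± 0.59 in P28 (SD, n = 3 each). P14 thus lay near P7, and the lowest ratios were those of P28, where Etnk2 had 8 reads in all.

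Pcyt2, whose enzyme is regarded as the rate-limiting one of the pathway, rose between P7 and P14. P1 gave 257, 254 and 161 normalized counts, P7 gave 232, 238 and 226, P14 gave 407, 532 and 529, and P28 gave 403, 197 and 411. The P7 libraries were close together and all below P14, whereas P28 replicate 2 lay below the P7 libraries and the other 2 lay near the lowest P14 library. The means rose from 232 ± 5.94 to 489 ± 71.5 (SD, n = 3 each), a log2 difference of 1.06 (SE 0.32; limma, adjusted p = 0.0294). The call was lost without P14 replicate 2 or 3 or any one P7 library, with log2 differences of 0.996 to 1.08 and adjusted p of 0.0734 to 0.0952. It was also lost under library totals (0.81, adjusted p = 0.0821), which moved the median of all genes from -0.09 to -0.34. Relative to the median Pcyt2 was higher by 1.15 under both scalings. This agreement too was set in advance and does not restore the call.

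The other Pcyt2 comparisons did not pass the test. The log2 difference was 0.08 from P1 to P7 (adjusted p = 0.948), -0.60 from P14 to P28 (adjusted p = 0.227) and 0.55 from P1 to P28 (limma, adjusted p = 0.204), and without P28 replicate 2 the last became 0.89 (adjusted p = 0.0240). The log2 ratio of Pcyt2 to the sum of the kinases was -2.23 ± 0.44 early and -1.97 ± 0.49 late (SD, n = 6 each), a difference of 0.26 with a two-sided exact permutation p of 0.329 before and after adjustment. By age the ratio ran from -2.82 to -1.65 in P1, -2.45 to -2.26 in P7, -1.73 to -1.60 in P14 and -2.77 to -1.70 in P28. The P14 libraries lay above those of P7 with no overlap, and this step of the ratio was not tested.

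Phospho1 had 4 reads in the 12 libraries together, of which P1 had 2, P7 and P14 had 1 each and P28 had 0, and no library exceeded 1.43 normalized counts. It did not pass the filter of at least 10 normalized counts in at least 3 libraries and was not tested. In the annotation 84.2% of its exon bases are shared with Abi3 on the opposite strand and 89.6% with a transcript of Zfp652 on the same strand, and both genes are in the table. Of the 47 protein-coding entries with at least 80% of their exon bases in exons of another entry, 57.4% missed the same filter, against 31.9% of 17248 entries with none. How reads in shared exons were counted is not stated, so the near-0 value cannot be read as a low level of Phospho1 RNA. Etnk1 shares 1.42% of its exon bases with an antisense gene that has no entry in the table, and the other 3 share none.

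From P1 to P7, 0 of 3 members tested were called by limma at an adjusted p under 0.05, against 7.70% of all genes tested, and 0 of 3 had an unadjusted p under 0.05 or were called by edgeR or DESeq2. From P7 to P14, 1 of 3 rose, against 10.8% of all genes that rose. From P14 to P28, 0 of 3 were called by limma, edgeR or DESeq2, against 14.4% in limma, and Etnk2 alone had an unadjusted p under 0.05 (0.0291). From P1 to P28, 2 of 4 rose, Etnppl and Etnk1, against 14.6%, and 1 of 4 fell, Etnk2, against 20.0%. Etnppl was chosen as a riser in these data, so the 2 of 4 cannot be weighed against the share of all genes. Etnk1 was the only other riser. Libraries without overlap were common in the table, at 38.3%, 46.1%, 26.1% and 41.9% of all genes in the 4 comparisons in this order.

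Divided by the length of their merged exons, the members fell into an abundant and a scarce set. Phospho1 is placed here by its counted reads only, because its RNA level cannot be read from them. At P1 the order of levels per kilobase of exon was Etnk1 (65.1 normalized counts), Pcyt2 (51.5), Etnk2 (4.55), Etnppl (0.722) and Phospho1 (0.235), and the libraries of Etnk1 and Pcyt2 overlapped, as did those of Etnppl and Phospho1. At P7 the order was the same, with Etnk1 at 84.7, Pcyt2 at 53.4, Etnk2 at 3.24 and Etnppl at 0.599, and Etnk1 was above Pcyt2 in every library. At P14 Pcyt2 (113), Etnk1 (107) and Etnppl (103) could not be separated beyond their spread, and Etnk2 was at 3.81.

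At P28 Etnk1 stood at 113 normalized counts per kilobase, Etnppl at 94.3 and Pcyt2 at 77.6, again with overlapping neighbours, and Etnk2 at 0.804. Etnppl thus moved from the 1.16th and 0.424th percentiles of 14857 genes per kilobase at P1 and P7 to the 73.0th and 68.9th at P14 and P28. The lengths came from all annotated transcripts. With the exons of the basic transcript set instead, Pcyt2 led at P1 (119 against 108 for Etnk1) and P14 (260, with Etnppl at 189 and Etnk1 at 178), and at P28 Etnk1 (187), Pcyt2 (179) and Etnppl (173) lay close together. At each age the same genes made up the abundant set under both lengths, with Etnppl in it at P14 and P28 and outside it at P1 and P7, and only the order within the set changed with the length.

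**Figure D2:**
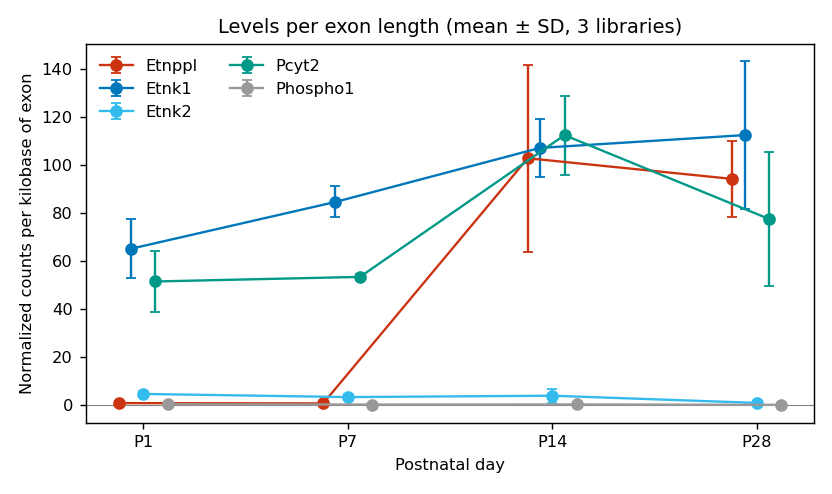
The y axis is normalized counts per kilobase of merged exons on a linear scale, the x axis is the postnatal day, and points and bars are the mean and SD of 3 libraries. Etnppl joined Etnk1 and Pcyt2 at about 100 normalized counts per kilobase at P14 and P28, and Etnk2 and Phospho1 stayed under 10 at every age. For Phospho1 these are counted reads, from which its RNA level cannot be read.

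The marker RNA of several cell types changed over the same days, and in bulk RNA fewer cells of a type cannot be told apart from less RNA per cell. The summed normalized counts of 10 astrocyte markers ranged from 59407 to 74423 in P1, 29292 to 53547 in P7, 154959 to 191092 in P14 and 358112 to 419126 in P28. None of these markers was at 0 everywhere, and 8 of 10 rose from P7 to P14. In that step 10.8% of all genes rose and 20.9% were called in either direction, and these shares apply to the P7 to P14 marker counts below. The 4 Bergmann glia markers lay between 6014 and 12102 in P7 and between 23005 and 32507 in P14, and 3 of 4 rose and 1 fell. All 7 oligodendrocyte markers rose from P1 to P7, where 7.70% of all genes were called in either direction. All 7 rose again from P7 to P14, the step of Etnppl, and 6 of 7 fell from P14 to P28, against 14.4% called. Their sums were 1524 to 2369 in P1, 21697 to 33358 in P7, 310651 to 369455 in P14 and 101682 to 141556 in P28. Of 8 granule neuron markers 4 rose and 1 fell from P7 to P14, with sums of 5042 to 10899 in P7 and 13732 to 25485 in P14. All 6 cycling cell markers fell from P7 to P14, with sums of 19645 to 25106 in P7 and 1258 to 1848 in P14. Choroid plexus markers spanned 1321 to 110107 within P14 alone.

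Per 10000 normalized counts of the astrocyte markers the mean was 0.973 ± 1.37 for P1, 0.992 ± 1.35 for P7, 50.5 ± 22.9 for P14 and 20.5 ± 4.95 for P28 (SD, n = 3 each), and the late libraries were all above the early ones. On the same footing Etnk1 was at 137 ± 45.1 in P1, 296 ± 126 in P7, 88.0 ± 13.6 in P14 and 42.0 ± 14.4 in P28. Pcyt2 was at 31.9 ± 4.22, 56.8 ± 21.3, 28.4 ± 5.45 and 8.76 ± 3.16 at the same ages. From P7 to P14 and from P1 to P28 the direction of both against these markers was thus opposite to that in normalized counts, and this holds for the called changes of Etnk1 (P1 to P28) and Pcyt2 (P7 to P14), with no test of the scaled values. P14 replicate 2, with the lowest Etnppl of its age, had the highest astrocyte sum (191092), a middle oligodendrocyte sum (340161) and a middle granule neuron sum (16700). The part of these markers in the Etnppl values was not tested.

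**Figure D3:**
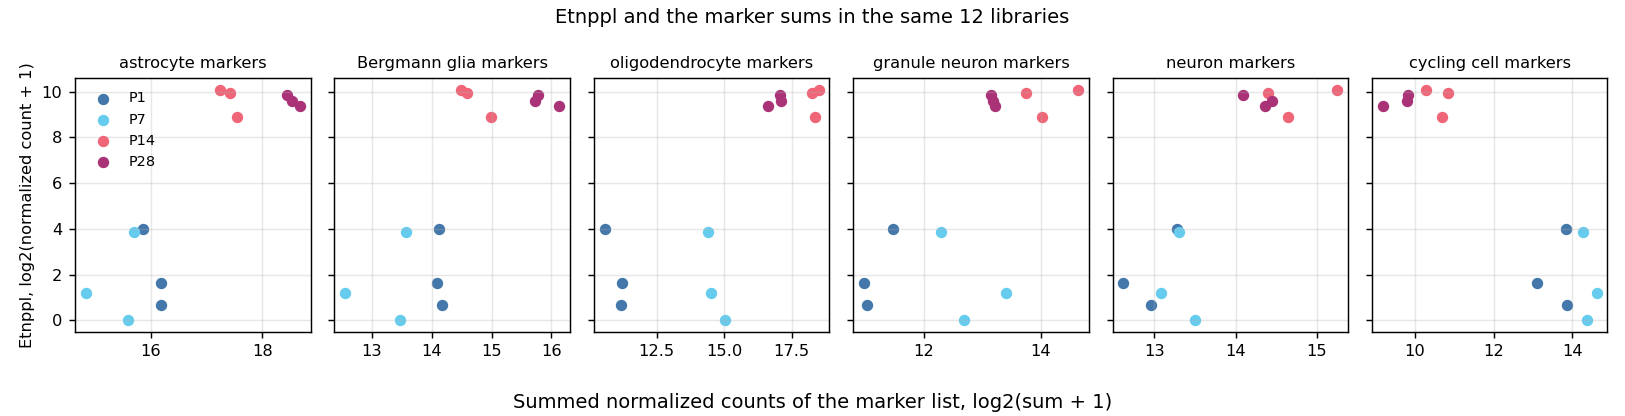
Each panel plots Etnppl as log2(normalized count + 1) on the y axis against the summed normalized counts of 1 marker list as log2(sum + 1) on the x axis, with 1 point per library coloured by postnatal day. The y values are the same in all 6 panels, so the P14 and P28 libraries lie above the P1 and P7 libraries in each by construction. The cycling cell sums run the other way, from 8712 to 25106 at the early ages to 583 to 1848 at the late ones.

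Many genes shared the shape of the Etnppl profile. By Pearson correlation of log2(normalized count + 1) over the 12 libraries, among 10211 genes with a mean of at least 100 normalized counts, the 5 closest were Cbln3 (r = 0.957), a granule neuron synaptic organizer, Omg (0.954), an oligodendrocyte and neuron surface glycoprotein, Ttll3 (0.953), a tubulin glycylase, Calb2 (0.953), the calcium-binding protein calretinin, and Nr1d1 (0.951), a nuclear receptor of the circadian clock. In all, 181 genes, or 1.77%, had an r above 0.9. The points share their libraries and one large step between P7 and P14, so these values describe a shape and nothing more. Cbln3 went from 41.2 ± 9.34 at P7 to 4207 ± 1931 at P14 (SD, n = 3 each), a log2 difference of 6.57 beside the 7.96 of Etnppl. Nr1d1 went on from 2460 ± 272 at P14 to 4612 ± 1084 at P28, whereas Calb2 went from 926 ± 330 down to 372 ± 149. Of the other members Etnk1 had an r of 0.739 with Etnppl and Pcyt2 0.652.

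The rest of the pathway was read through 49 further genes in 9 lists, of which 46 passed the filter. In the first step, from P1 to P7, 4 of the 46 rose and 4 fell (17.4% called, against 7.70% of all genes), from P7 to P14, 9 rose and 2 fell (23.9%, against 20.9%), and from P14 to P28, 5 rose and 3 fell (17.4%, against 14.4%). From P1 to P28, 13 rose and 6 fell (41.3%, against 34.6%). The median log2 difference of the 46 was 0.26 from P7 to P14, beside -0.09 for all genes, and 0.13 from P1 to P28, beside -0.24. In the sentences that follow, log2 differences come from the same limma fit and p-values are adjusted over all genes tested.

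Downstream of Pcyt2, the phosphotransferase genes Selenoi, listed under its older name Ept1, and Cept1 complete phosphatidylethanolamine, while Pisd makes it in mitochondria from phosphatidylserine. Of the 6 genes of this list 1 fell from P1 to P7, where 7.70% of all genes were called in either direction, and 1 rose from P1 to P28, against 14.6% of all genes. From P7 to P14 limma called 0, against 20.9% of all genes, with 1 at an unadjusted p under 0.05, edgeR 0 and DESeq2 1. From P14 to P28 limma called 0, against 14.4%, with 2 at an unadjusted p under 0.05, edgeR 0 and DESeq2 1. The gene that fell was Pisd, by 1.00 (adjusted p = 0.0488), from 536 ± 23.9 to 268 ± 38.8. DESeq2 also called it (adjusted p = 0.0110), and edgeR did not (-0.99, adjusted p = 0.0545). Cept1 was the one that rose by P28, by 1.42 (adjusted p = 0.00910), and Ept1 held means between 341 and 440 at all 4 ages.

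The choline branch runs in parallel with kinases, cytidylyl-transferases and a phosphotransferase of its own. Chpt1, the cholinephosphotransferase gene, rose at both later steps, by 2.10 to P14 (adjusted p = 7.59e-06) and by 1.15 to P28 (adjusted p = 0.00314), with means of 418 ± 72.7 in P7, 1783 ± 78.3 in P14 and 3989 ± 589 in P28. Pcyt1b, a phosphocholine cytidylyl-transferase gene, fell by 1.04 from P1 to P7 (adjusted p = 0.0374). Limma called neither Chka nor Pcyt1a in the 4 comparisons. Chka, a choline kinase gene, had an unadjusted p under 0.05 in each of the 3 steps with no overlap between libraries, its log2 differences were -0.47, 0.55 and -0.46, and DESeq2 called the step from P7 to P14 (adjusted p = 0.0290), which edgeR did not (adjusted p = 0.0699). The kinase gene Chkb did not pass the filter. Among the transporters, Slc44a1, a choline transporter gene, rose by 1.66 from P7 to P14 (adjusted p = 3.61e-05) and fell by 0.81 from P14 to P28 (adjusted p = 0.0147), with 2515 ± 306 at P14. Slc44a5 fell by 3.00 from P14 to P28 (adjusted p = 0.0459), although the libraries of the 2 ages overlapped at 6.35 and 7.31 normalized counts.

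Phosphoethanolamine also comes from sphingolipids, since the lyase encoded by Sgpl1 cleaves sphingosine phosphate to it. Sgpl1 stood at 780 ± 79.8 normalized counts at P7, 555 ± 27.4 at P14 and 899 ± 37.4 at P28, and rose by 0.69 in the last step (adjusted p = 0.0169). The kinase gene Sphk2, upstream of Sgpl1, rose by 1.38 from P7 to P14 (adjusted p = 0.0365), and Sgpp2, a gene for a sphingosine phosphate phosphatase, was higher at P7 than at P1 by 3.35 (adjusted p = 0.00397). Of this list of 5, 2 rose from P7 to P14, against 10.8% of all genes, and 3 rose from P1 to P28, against 14.6%. Free ethanolamine is released from lipid mediators by other enzymes. A list of 8 genes was drawn up around that release, and not all of their enzymes release ethanolamine themselves. In this list Gde1, a glycerophosphodiesterase gene, rose by 1.76 from P7 to P14 (adjusted p = 3.22e-05). In the same step 2 of the 8 rose and 1 fell (37.5% called, against 20.9% of all genes). The gene that fell was Gdpd1, of the same broad family, by 1.63 (adjusted p = 0.00468), with means of 1218 ± 206 in P7 and 390 ± 33.6 in P14. Naaa, an acylethanolamine amidase gene, rose by 1.75 from P14 to P28 (adjusted p = 0.0174).

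Ether lipids of myelin carry ethanolamine head groups, and in that list of 6 Tmem189, the plasmanylethanolamine desaturase gene, rose by 1.14 from P7 to P14 (adjusted p = 0.0185) and Far1, a fatty acyl reductase gene, fell by 0.68 from P14 to P28 (adjusted p = 0.0311). A list of 5 genes came from the synthesis of glycosylphosphatidylinositol anchors, and not all of their enzymes add ethanolamine phosphate. Of these 5, 0 were called in each single step by limma, edgeR or DESeq2, and 0 had an unadjusted limma p under 0.05. Limma called 7.70%, 20.9% and 14.4% of all genes in these steps. Pigg, 1 of the 5, rose from P1 to P28 (0.92, adjusted p = 0.0368), where 14.6% of all genes rose. Among the closest relatives of the members, Agxt2 was listed at 0 in all 12 libraries, and Phykpl, whose enzyme belongs to the same family as the lyase, stood at 169 ± 58.9 normalized counts at P7 and 103 ± 41.6 at P14 and was not called (log2 difference -0.72, 95% interval -2.58 to 1.15).

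Acetaldehyde is one of the products of the lyase. The 3 listed aldehyde dehydrogenase genes that can oxidize it were all called from P7 to P14, 2 higher and 1 lower, against 20.9% of all genes called. From P1 to P7 Aldh2 had fallen by 1.29 (adjusted p = 0.0171) from a P1 mean of 904, and Aldh1a1 had already risen by 1.06 (adjusted p = 0.0103). From P7 to P14 Aldh2 rose by 1.52 (adjusted p = 0.00239), from 362 ± 19.1 to 1128 ± 493, and again by 1.04 to P28 (adjusted p = 0.0349), a call that edgeR did not make (0.92, adjusted p = 0.0532). Aldh1a1, better known for making retinoic acid, rose by 2.91 from P7 to P14 (adjusted p = 1.16e-06), from 330 ± 52.5 to 2473 ± 181, and reached 7387 ± 892 at P28 (SD, n = 3 each). Aldh1b1 went the other way, from 64.1, 79.6 and 99.2 normalized counts at P7 to 0 in all 6 libraries of P14 and P28, which was at least 25.3-fold lower at P14 with 3 reads per library as the floor.

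**Figure D4:**
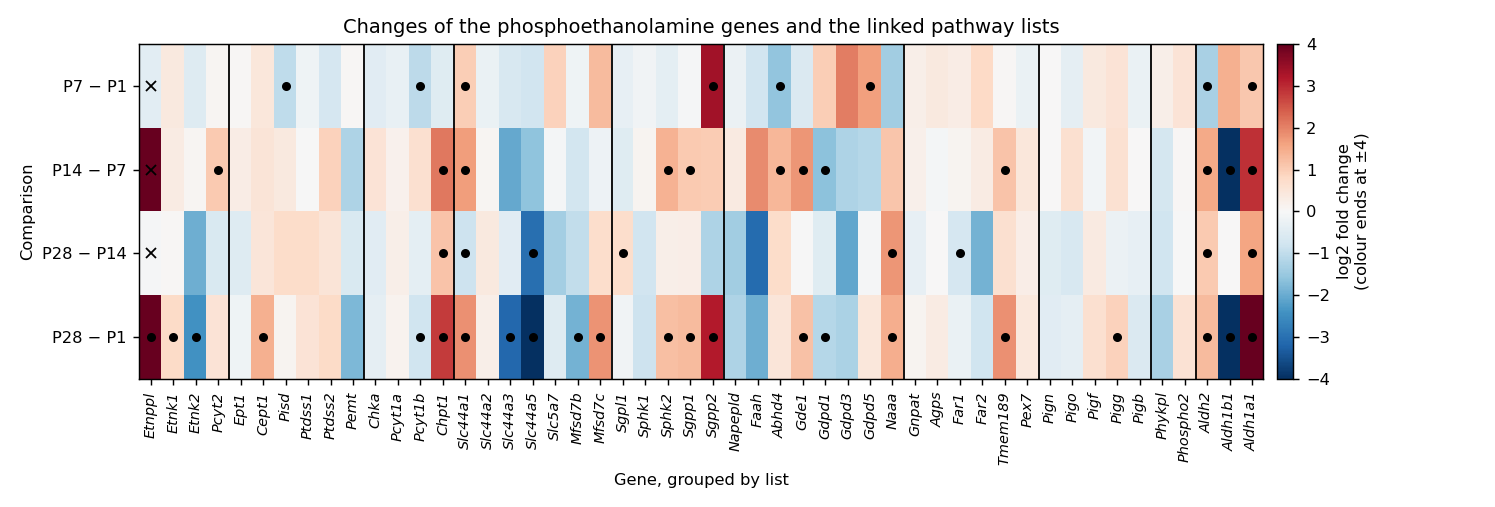
Columns are the 4 members that passed the filter followed by the 46 tested genes of the 9 lists, separated by lines, and rows are the 4 comparisons. Colour is the log2 fold change up to ±4, a dot marks an adjusted p under 0.05 and a cross marks the Etnppl steps that were not tested. From P7 to P14 the dots fall on Pcyt2, Chpt1, Slc44a1 and the 3 aldehyde dehydrogenase genes among others, and Etnppl has the deepest colour of the members.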

How the data were processed

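RNA from GFP-sorted cerebellar cells was sequenced in 12 libraries, 3 per age, after cDNA and library construction from 10 ng of total RNA, per the labels. The authors used STAR (2.5.0a) for alignment to mm10, UCSC transcripts for read counting and DESeq2 for normalization, as given in the methods. The submitters' processing notes give DESeq2 version 1.30.1, and the methods give another version. Strand use and the handling of shared reads are not stated. The deposited values are a signal of normalized counts, and dividing by each library's smallest step gave whole reads for 100% of the values (tolerance 0.01). Columns were assigned to ages through the labels only, because all column names carry P28.

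The test was limma (3.58.1, R 4.3.3) with a trend on log2(normalized count + 1), a mean per age and 1 fit over 12 libraries, for the 15464 genes in which 3 or more libraries had at least 10 normalized counts. A call needed a Benjamini-Hochberg adjusted p under 0.05. edgeR (4.0.16) on the recovered reads called 1093, 3055, 1982 and 4962 genes in the 4 comparisons, and DESeq2 (1.42.0) was another alternative. Other alternatives were scaling, pseudocounts of 0.1 and 10, filters, a replicate block, only the time points compared, the unadjusted threshold of the paper, each library left out and, chosen after seeing the data, the exon set behind levels per kilobase. Libraries of an age differed beyond sampling noise, so none was counted as a duplicate. Lengths came from GENCODE M21.

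Members and lists were chosen with earlier results of these data known. Named were the 5 members, in each list up to 2 called genes with the largest change at a step and a mean of at least 100, and the 5 genes most like Etnppl. Ept1, Cept1, Chka, Pcyt1a, Chkb, Sgpl1, Gdpd1, Pigg, Agxt2, Phykpl and Aldh1b1 were named for their roles after their values were seen. The floor of 3 reads covers counting error only, while the intervals of log2 differences come from the spread between libraries in limma.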

Additional observations from a re-analysis of the deposited data

How the results depend on the processing

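Of 497 values recomputed under alternatives, 448 kept their direction and side of the threshold, or stayed within the spread. The test of Etnppl at P28 against P1 was not fully independent of the choice of the gene, and its alternatives share that limit. Etnppl at P28 against P1 passed in every alternative run, with log2 differences of 5.72 to 8.06 and of 6.76 to 8.42 with single libraries left out, and adjusted p up to 9.08e-04. Its untested values were 5.87 and 9.33 from P7 to P14 with pseudocounts of 10 and 0.1, 7.11 to 9.04 for the same step with single libraries left out, and -1.52 to 0.52 from P1 to P7 with single libraries left out, above 0 without P1 replicate 3 or P7 replicate 3. Under library totals alone, Pcyt2 from P7 to P14 (0.81, adjusted p = 0.0821) and Etnk1 from P1 to P28 (0.34, adjusted p = 0.231) lost their calls, and 2 uncalled values turned sign, Etnk2 from P7 to P14 (-0.16) and Etnk1 from P14 to P28 (-0.19). With only the time points compared, Etnk1 (0.77, adjusted p = 0.0533) and Etnk2 (-2.41, adjusted p = 0.0711) missed the threshold from P1 to P28, and 13, 2 and 12 pathway list genes were called from P1 to P7, P14 to P28 and P1 to P28, in place of 8, 8 and 19. Etnk2 from P1 to P28 also missed it in edgeR (-2.44, adjusted p = 0.0743) and without a filter (-2.41, adjusted p = 0.0531). Under the paper's unadjusted threshold Etnk2 from P14 to P28 passed (-1.95). With single libraries left out, Pcyt2 ranged from -0.14 (without P1 replicate 3) to 0.20 from P1 to P7, from 0.996 to 1.19 from P7 to P14, and from 0.32 to 0.89 (without P28 replicate 2, now called) from P1 to P28. Etnk2 ranged from -0.48 (without P14 replicate 1) to 0.44 from P7 to P14, with -0.29 without P7 replicate 1, and from -2.93 to -2.02 from P1 to P28. Etnk1 from P14 to P28 ranged from -0.17 (without P28 replicate 1) to 0.15, with -0.053 without P14 replicate 1. Pathway list calls ranged from 4 to 9, 9 to 15, 4 to 11 and 13 to 20 in the 4 comparisons. Over all genes, the 1191 calls from P1 to P7 became 1812 in DESeq2, 2818 with only the time points compared, 2198 under the unadjusted threshold and as few as 651 without P7 replicate 2, and the 2232 from P14 to P28 became 766 with only the time points compared, 3725 under the unadjusted threshold and as few as 1242 without P14 replicate 3. The cause of these changes was not tested.

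The replicate numbers do not pair the libraries: deviations of same-numbered libraries correlated at -0.029 to 0.14. As an alternative, the replicate number as a block gave Pcyt2 from P7 to P14 an adjusted p of 0.0435 (limma, log2 difference 1.06) and changed no call of a member.

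Reads limit Etnk2 at P28 (8 reads), Etnppl at P1 and P7 (24 and 18 reads) and Phospho1 (4 reads in all). The filter of 10 in every library left no value for Etnppl or Etnk2.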
